A study of Mus musculus with 16 samples.

Results

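Striated muscle is represented here by 49 genes listed by name: myosins, actins, troponins and other sarcomere proteins, proteins of the triad, enzymes of muscle energy metabolism, and genes of the neuromuscular junction. Of these, 45 had a probe set under their own symbol on the Affymetrix MG-U74Av2 chip, among 8251 genes in all. Mybpc2, Ttn, Trdn and Ampd1 did not and are not analysed here. A single probe set measured 31 of the 45 genes and several measured the other 14, which gives 59 probe sets. A gene with several was given by its brightest one, by mean value over the 8 chips. The 45 genes fall into 8 classes. Of the isoform classes, the embryonic and perinatal myosin heavy chains hold 2 genes. Cardiac or fetal isoforms that early skeletal muscle also uses number 3, fast isoforms 9 and slow isoforms 6. Sarcomere proteins not split here by fibre type (9) are called shared sarcomere genes below. The other classes are the triad (6), metabolic enzymes and oxygen handling (6), and the neuromuscular junction with the myogenic factor Myog (4).

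The RNA came from whole inner ears of newborn (P0) mice of the 129SvEv strain, either wild-type or COUP-TFI-/-, which lack the nuclear receptor COUP-TFI encoded by Nr2f1. Hybridization took place on 2 occasions, called sets A and B. For each occasion and genotype, RNA of multiple ears was combined into 1 pool and put on duplicate chips, numbered 1 and 2 after the letter of the set, so each genotype has 2 pools and 4 chips. The same 8 chips were deposited with 2 normalizations, GCRMA and dChip, which makes 16 samples. Every value below is a GCRMA value on the log2 scale unless dChip is named, and a genotype difference is COUP-TFI-/- minus wild-type.

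Striated muscle contracts through sarcomeres, in which myosin filaments pull on actin filaments under the control of troponin and tropomyosin. Skeletal fibres build the sarcomere from isoforms that change with age and fibre type: embryonic (Myh3) and perinatal (Myh8) myosin heavy chains come first and give way after birth to the adult fast chains (Myh1, Myh2, Myh4) or to the slow chain Myh7. The triad joins the surface membrane to the calcium store, where Cacna1s senses voltage, Ryr1 releases calcium, Casq1 binds it and Atp2a1 pumps it back. The inner ear has no striated muscle of its own, and small skeletal muscles lie in the middle ear next to it. In RNA of a whole tissue, fewer muscle fibres, less RNA per fibre and less muscle taken along in dissection cannot be told apart. The paper set aside genes whose genotype effect depended on the hybridization set, as possible tissue contamination from dissection. It reported striated muscle classes as over-represented among those genes. That reading was not tested here. Casq1 and Mybph were among the genes that the paper kept as candidate COUP-TFI targets.

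Nr2f1, the deleted gene, was at 8.83 and 8.72 on the wild-type chips of set A, 7.90 and 7.74 on those of set B, and between 4.68 and 5.27 on the 4 COUP-TFI-/- chips, which fits the labels. The otoconial gene Oc90, a marker of inner ear epithelium, had a mean of 12.0 on the 8 chips. The median value of a chip lay between 7.20 and 7.23, and the correlation between duplicates was 0.996 to 0.997 over the probe sets of a chip (probe sets are no replicates). The median absolute difference between duplicates was 0.06 to 0.11 for the 45 muscle genes.

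The wild-type pool of set B held the least of the muscle transcripts. Means over the 8 chips ran from 4.27 (Myh2) to 12.7 (Acta1), and all but Myh2 were above the 4.60 that bounds the dimmest 10% of all probe sets. Wild-type set B was the lowest of the 4 pools for 34 of 45 genes, and the COUP-TFI-/- pool of set B had the highest value for 33. Relative to each gene's mean over the 4 pools, the median of the 45 genes was 0.02 in wild-type set A, 0.05 in COUP-TFI-/- set A, -0.34 in wild-type set B and 0.26 in COUP-TFI-/- set B. For 32 of 45 genes (71.1%) both wild-type chips of set B were below the other 6 chips, against 688 of all 8251 genes (8.34%). Summed on a linear scale, where the brightest genes such as Acta1 weigh most, the 45 genes gave 30315 and 30635 units in wild-type set A and 30651 and 30204 in COUP-TFI-/- set A. In set B the sum was 20481 and 19779 units in wild-type and 33110 and 34789 in COUP-TFI-/-. The heat map of all 45 genes shows the same pools gene by gene.

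**Figure D1:**
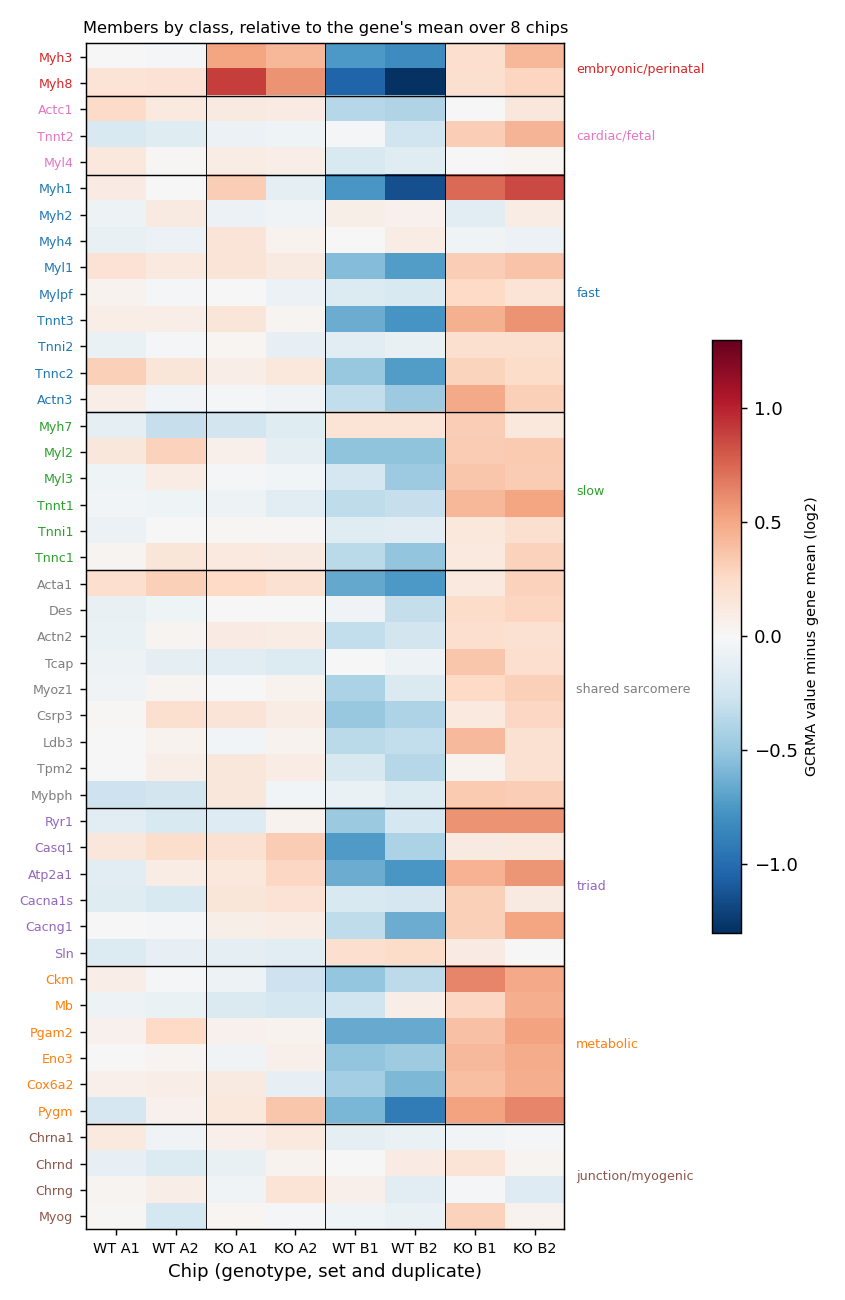
GCRMA value of the 45 muscle genes on the 8 chips (columns, WT wild-type and KO COUP-TFI-/-), each minus the gene's own mean over the 8 chips, in log2 units. Rows are grouped by class. The wild-type chips of set B are the lowest for most genes, Myh8 and Myh3 are highest in COUP-TFI-/- of set A, and the junction genes vary little.

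Each gene was tested with limma, and called at an adjusted p (Benjamini-Hochberg over all 12422 probe sets) under 0.05. In this test 35 of 45 muscle genes were higher in COUP-TFI-/- of set B and 0 were lower, against 2.42% and 1.35% of all genes. At an unadjusted p under 0.05 the counts were 38 and 1, against 10.8% and 8.16%. The median difference of the 45 genes was 0.65. By class, 2 of 2 embryonic and perinatal, 2 of 3 cardiac or fetal, 7 of 9 fast, 5 of 6 slow, 8 of 9 shared sarcomere, 5 of 6 triad, 6 of 6 metabolic and 0 of 4 junction genes passed. With dChip 31 were higher, 30 of them among the 35, against 2.78% of all genes, and Myh2 was lower (-0.72, adjusted p = 0.0299), against 2.9%. The 5 calls that ended with dChip were Tnni1, Mybph, Cacna1s, Cacng1 and Mb. In set B both COUP-TFI-/- chips were above both wild-type chips for 39 of 45 genes (86.7%), against 26.3% of all genes, and in set A for 14 (31.1%), against 19.8%. In set A, 0 of 45 passed in either direction, against 0.0727% of all genes higher and 0.097% lower, and the median difference was 0.01. At an unadjusted p under 0.05, 7 were higher and 1 was lower in set A, against 3.18% and 4.02%. These tests rest on the spread between duplicate chips of 1 pool per genotype, so they compare pools and not groups of animals.

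The embryonic and perinatal myosin heavy chains had every COUP-TFI-/- chip above every wild-type chip. Myh8, the perinatal chain, was at 8.10 and 8.11 in wild-type set A and at 8.82 and 8.51 in COUP-TFI-/- set A. In set B it was at 6.87 and 6.63 in wild-type and at 8.13 and 8.20 in COUP-TFI-/-. The wild-type pool of set B was far below the other 3 pools. Myh3, the embryonic chain, was at 7.26 and 7.25 in wild-type set A, 7.78 and 7.70 in COUP-TFI-/- set A, 6.53 and 6.45 in wild-type set B, and 7.49 and 7.70 in COUP-TFI-/- set B. Here too the genotypes did not overlap. The difference in set A was 0.56 for Myh8 (adjusted p = 0.103) and 0.49 for Myh3 (adjusted p = 0.0683), neither past the threshold. In set B it was 1.41 ± 0.11 (SE) for Myh8 (adjusted p = 4.5e-05) and 1.11 ± 0.09 for Myh3 (adjusted p = 4.6e-05), or 2.65-fold and 2.15-fold.

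The fast class was led by Myh1, the fast IIx myosin heavy chain. Its values were 6.64 and 6.52 in wild-type set A, 6.85 and 6.41 in COUP-TFI-/- set A, 5.77 and 5.39 in wild-type set B, and 7.27 and 7.39 in COUP-TFI-/- set B. In set A the genotypes overlapped, and in set B they were 1.75 ± 0.15 apart (3.36-fold, adjusted p = 5.1e-05), the largest difference of the 45 genes in either set, as represented here. Tnnt3, fast troponin T, was at 9.29 on both wild-type chips of set A, 9.36 and 9.24 in COUP-TFI-/- set A, 8.56 and 8.44 in wild-type set B, and 9.67 and 9.79 in COUP-TFI-/- set B. Myl1, a fast alkali light chain, was at 11.87 and 11.82, 11.85 and 11.81, 11.13 and 10.97, and 12.01 and 12.06 in the same order of pools. For both genes the set A pools overlapped and the set B pools did not, with differences of 1.23 (Tnnt3) and 0.99 (Myl1) in set B. Tnnc2, fast troponin C, and Actn3, the alpha-actinin of fast fibres, were higher in COUP-TFI-/- of set B by 0.87 and 0.79. The regulatory light chain Mylpf (0.41) and fast troponin I, Tnni2 (0.33), passed too. With dChip these genes differed more, by 1.07 (Mylpf) and 1.25 (Tnni2), than Tnnt3 (0.91), Tnnc2 (0.87), Myl1 (0.76) and Actn3 (0.49).

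The other adult fast chains did not pass. Myh2, the IIa chain, lay between 4.12 and 4.38 on all 8 chips, among the dimmest probe sets, and its difference in set B was -0.09 (adjusted p = 0.646). Myh4, the IIb chain, had a difference of 0.19 in set A (adjusted p = 0.702) and -0.11 in set B (adjusted p = 0.486), and the 8 chips spanned 7.15 to 7.42. The other probe set of Myh4 had a mean of 4.00, under the 4.60 that bounds the dimmest 10% of probe sets. It gave 0.20 in set B without passing (adjusted p = 0.281), with both COUP-TFI-/- chips above both wild-type chips. Myh3, Myh2, Myh1, Myh4 and Myh8 lie next to one another in that order on chromosome 11, in the RefSeq annotation of GRCm38.p6. To show what these neighbouring genes share in sequence, the 250 bases before the start of the 5 genes are given below from RefSeq (GRCm38.p6, 5′ to 3′). The capitals mark the longest run of letters common to Myh2, Myh1, Myh4 and Myh8, which was searched for on both strands in all promoters.
Myh3 (chr11:67078050-67078299, plus strand): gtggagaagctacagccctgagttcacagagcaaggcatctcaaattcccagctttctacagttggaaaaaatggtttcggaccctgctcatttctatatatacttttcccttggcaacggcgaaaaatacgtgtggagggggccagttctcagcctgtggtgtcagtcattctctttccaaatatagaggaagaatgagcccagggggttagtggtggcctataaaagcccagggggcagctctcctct
Myh2 (chr11:67170777-67171026, plus strand): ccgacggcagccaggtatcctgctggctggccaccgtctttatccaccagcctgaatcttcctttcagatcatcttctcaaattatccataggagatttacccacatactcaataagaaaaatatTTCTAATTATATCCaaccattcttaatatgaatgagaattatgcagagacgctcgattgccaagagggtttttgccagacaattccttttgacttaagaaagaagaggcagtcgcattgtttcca
Myh1 (chr11:67199852-67200101, plus strand): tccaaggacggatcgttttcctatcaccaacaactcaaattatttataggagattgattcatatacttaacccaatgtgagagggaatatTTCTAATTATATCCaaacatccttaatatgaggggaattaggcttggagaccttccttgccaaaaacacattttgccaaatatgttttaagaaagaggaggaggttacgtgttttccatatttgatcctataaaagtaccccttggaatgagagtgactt
Myh4 (chr11:67237562-67237811, plus strand): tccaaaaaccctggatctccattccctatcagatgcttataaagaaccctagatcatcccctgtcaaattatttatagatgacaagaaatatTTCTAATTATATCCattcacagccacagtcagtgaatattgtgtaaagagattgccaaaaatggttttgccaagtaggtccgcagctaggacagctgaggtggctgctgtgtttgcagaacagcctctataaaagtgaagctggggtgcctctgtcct
Myh8 (chr11:67276874-67277123, plus strand): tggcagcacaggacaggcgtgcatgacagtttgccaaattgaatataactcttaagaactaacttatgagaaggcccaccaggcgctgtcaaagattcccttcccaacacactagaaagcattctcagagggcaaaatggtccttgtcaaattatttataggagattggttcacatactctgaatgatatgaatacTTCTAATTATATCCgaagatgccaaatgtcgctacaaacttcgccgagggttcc

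The run of 14 bases, TTCTAATTATATCC, was found in these 4 promoters and in no other of the 27025 promoters of the same length (0.0148% of them), and the promoter of Myh3 does not hold it. Its first base lies 125 bases before the start in Myh2, 160 in Myh1, 158 in Myh4 and 54 in Myh8. The genes with the run include Myh8 and Myh1, which were higher in COUP-TFI-/- of set B, and Myh2 and Myh4, which did not pass. Myh3 lacks the run and was also higher in set B.

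**Figure D2:**
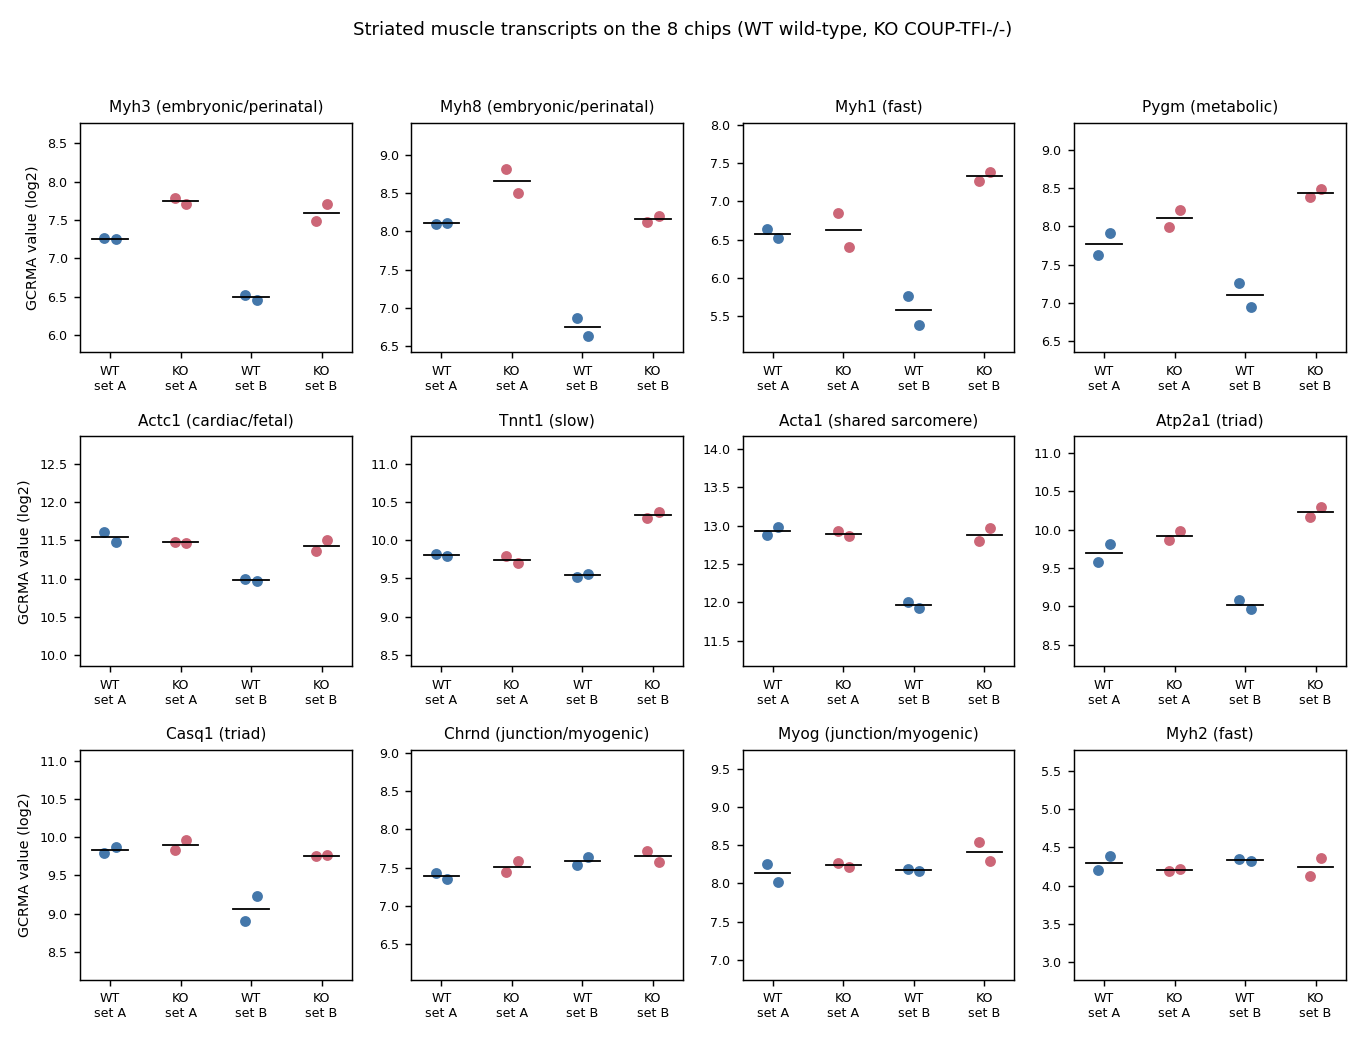
GCRMA value (log2) of 12 muscle genes on each chip (points), with the mean of the 2 duplicate chips of a pool (line), for wild-type (WT, blue) and COUP-TFI-/- (KO, red) in sets A and B. Every panel spans 3 log2 units. Both COUP-TFI-/- chips are above both wild-type chips in either set for Myh3, Myh8, Pygm and Atp2a1. In set B alone this holds for Myh1, Actc1, Tnnt1, Acta1, Casq1 and Myog. Chrnd, Myog and Myh2 stay within 0.6 log2 units.

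Of the slow isoforms, all but the myosin heavy chain itself were higher in COUP-TFI-/- of set B, with a median difference of 0.67 over the class. Myl2, the slow and ventricular regulatory light chain, was at 8.09 and 8.23 in wild-type set A, 8.00 and 7.81 in COUP-TFI-/- set A, 7.41 and 7.42 in wild-type set B, and 8.27 on both COUP-TFI-/- chips of set B. It was lower in COUP-TFI-/- of set A by 0.26 without passing (adjusted p = 0.559), and higher in set B by 0.86. Tnnt1, slow troponin T, was at 9.82 and 9.80 in wild-type set A, 9.79 and 9.70 in COUP-TFI-/- set A, 9.52 and 9.56 in wild-type set B, and 10.28 and 10.37 in COUP-TFI-/- set B. Its COUP-TFI-/- pool of set B was thus above the other 3 pools, and the wild-type pool of set B only somewhat below them. The slow light chain Myl3, the slow and cardiac troponin C gene Tnnc1, and slow troponin I, Tnni1, passed in set B with differences of 0.69, 0.65 and 0.32. Myh7 did not pass with its brightest probe set (0.05, adjusted p = 0.79). Its other probe set, which also carries the mark for probes shared within a gene family, gave 0.67 (adjusted p = 0.00061).

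The shared sarcomere class, which was not split by fibre type, had a median set B difference of 0.49. Acta1, skeletal alpha-actin, was at 12.88 and 12.98 in wild-type set A, 12.93 and 12.87 in COUP-TFI-/- set A, 12.00 and 11.92 in wild-type set B, and 12.80 and 12.97 in COUP-TFI-/- set B. The other pools were alike, and only the wild-type pool of set B was lower. Ldb3, a Z-disc protein, was at 8.81 and 8.86, 8.78 and 8.86, 8.46 and 8.49, and 9.24 and 9.01 in that order of pools. Among the other 7 genes, the set B difference ran from 0.32 for the titin cap gene Tcap, which just missed the threshold (adjusted p = 0.0545), to 0.65 for Csrp3, a muscle LIM protein. Des (the intermediate filament desmin), Actn2, Myoz1, Tpm2 (beta-tropomyosin) and Mybph passed between 0.42 and 0.59. Mybph, a myosin-binding protein of the thick filament, also had one of the larger differences in set A (0.31, adjusted p = 0.378).

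Actc1, the cardiac alpha-actin of fetal skeletal muscle, was at 11.61 and 11.48 in wild-type set A, 11.48 and 11.47 in COUP-TFI-/- set A, 10.99 and 10.97 in wild-type set B, and 11.36 and 11.50 in COUP-TFI-/- set B. Its set B difference of 0.45 was less than that of Acta1 (0.92). The other probe set of Actc1 gave 0.62 (adjusted p = 0.0019), nearer to Acta1 but still less. Tnnt2, cardiac troponin T, was at 6.30 and 6.34, 6.41 and 6.44, 6.48 and 6.24, and 6.82 and 6.93 in the same order, so its COUP-TFI-/- pool of set B stood above pools that were otherwise alike. Both passed in set B, and Myl4, the atrial and embryonic light chain, did not with its brightest probe set (0.19, adjusted p = 0.212). The other probe set of Myl4 passed (0.57, adjusted p = 0.0182).

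In the triad, Atp2a1 and Ryr1 had the largest differences in set B, and Cacna1s in set A (0.35, adjusted p = 0.255). Atp2a1, the fast-fibre calcium pump, was at 9.58 and 9.82 in wild-type set A, 9.86 and 9.99 in COUP-TFI-/- set A, 9.08 and 8.97 in wild-type set B, and 10.17 and 10.30 in COUP-TFI-/- set B. All COUP-TFI-/- chips were above all wild-type chips, with a difference of 0.23 in set A (adjusted p = 0.707) and 1.21 in set B (2.32-fold). Ryr1, the calcium release channel, was at 6.24 and 6.18, 6.21 and 6.42, 5.89 and 6.15, and 6.96 on both chips, in the order used above. Casq1, calsequestrin of fast fibres and a gene the study followed up, was at 9.79 and 9.87 in wild-type set A, 9.84 and 9.96 in COUP-TFI-/- set A, 8.90 and 9.23 in wild-type set B, and 9.75 and 9.76 in COUP-TFI-/- set B. The 2 pools of set A overlapped for Casq1 (difference 0.07, adjusted p = 0.957), and the set B difference of 0.69 ± 0.11 passed (1.62-fold, adjusted p = 0.00385). The channel subunits Cacna1s and Cacng1 passed in set B (0.42 and 0.89). With dChip neither passed, at 0.13 for Cacna1s (adjusted p = 0.318) and -0.08 for Cacng1 (adjusted p = 0.644). Sln, sarcolipin, an inhibitor of the calcium pump, had a set B difference of -0.18 (adjusted p = 0.226).

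With their brightest probe sets, all 6 metabolic genes measured were higher in COUP-TFI-/- of set B. The second probe sets of Ckm and Mb, given further below, were not higher. This class had the highest median difference in set B after the embryonic and perinatal chains (0.96 against 1.26). Pygm, muscle glycogen phosphorylase, was at 7.63 and 7.91 in wild-type set A, 8.00 and 8.22 in COUP-TFI-/- set A, 7.26 and 6.95 in wild-type set B, and 8.38 and 8.49 in COUP-TFI-/- set B. The COUP-TFI-/- chips were all above the wild-type chips, by 0.34 in set A (adjusted p = 0.611) and by 1.33 ± 0.13 in set B (2.52-fold, adjusted p = 0.00012). Pgam2, muscle phosphoglycerate mutase, was at 8.35 and 8.56 in wild-type set A, 8.35 on both COUP-TFI-/- chips of set A, 7.65 and 7.64 in wild-type set B, and 8.68 and 8.82 in COUP-TFI-/- set B. Ckm, muscle creatine kinase, was at 7.99 and 7.88, 7.84 and 7.64, 7.41 and 7.57, and 8.54 and 8.40. For Ckm the genotypes overlapped in neither set, and the difference was -0.19 in set A (adjusted p = 0.771) and 0.98 in set B. Eno3 (beta-enolase) and Cox6a2 (the muscle subunit of cytochrome c oxidase) differed by 0.94 each in set B, and Mb, myoglobin, by 0.46 (with dChip 0.17, adjusted p = 0.253).

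Genes of the neuromuscular junction and Myog varied little between the pools. Chrnd, the delta subunit of the acetylcholine receptor, was at 7.43 and 7.35 in wild-type set A, 7.44 and 7.59 in COUP-TFI-/- set A, 7.54 and 7.64 in wild-type set B, and 7.72 and 7.58 in COUP-TFI-/- set B. Myog, a transcription factor of muscle differentiation, was at 8.26 and 8.01, 8.27 and 8.22, 8.19 and 8.16, and 8.54 and 8.29. The pools of these genes overlapped or nearly touched. None of Chrna1, Chrnd, Chrng (the fetal gamma subunit) and Myog passed in any of the comparisons (in set B, 1 at an unadjusted p under 0.05), and their set B differences lay between -0.06 and 0.24, with a median of 0.07.

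The genotype difference was larger in set B than in set A for 21 of 45 genes by the test of the interaction, and larger in set A for 0 (at an unadjusted p under 0.05, for 34 and 1, against 8.52% and 6.45% of all genes). Over all genes the shares were 0.618% (51 genes, of which these are 21) and 0.242%. With dChip 16 passed, 14 of them among the 21, against 0.303% of all genes. The count was 6 with dChip values under 16 set to 16, and 0 with the methods' 2-way analysis of variance after Benjamini-Hochberg adjustment. Myh1 had the largest interaction, -1.70 ± 0.21 (set A minus set B, adjusted p = 0.00247). Tnnt3 (-1.22), Pgam2 (-1.21), Ckm (-1.18), Myl2 (-1.11), Cox6a2 (-1.01) and Myl1 (-1.002) followed. Without any one of the chips wild-type A1, A2 or B2 or COUP-TFI-/- A1 or A2, 12 or 13 genes passed. Of the genes higher in set B, 14 did not pass the interaction test, among them Casq1 (-0.62, adjusted p = 0.0803), Actc1 (-0.52) and Cacna1s (-0.07). Cacna1s and Mybph had differences of similar size in the sets, 0.35 and 0.42 for Cacna1s and 0.31 and 0.46 for Mybph. With dChip they were -0.029 and 0.13 for Cacna1s and 0.21 and 0.13 for Mybph, and neither passed in set B. The plot of one set's differences against the other's shows most muscle genes above the diagonal and close to 0 in set A.

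**Figure D3:**
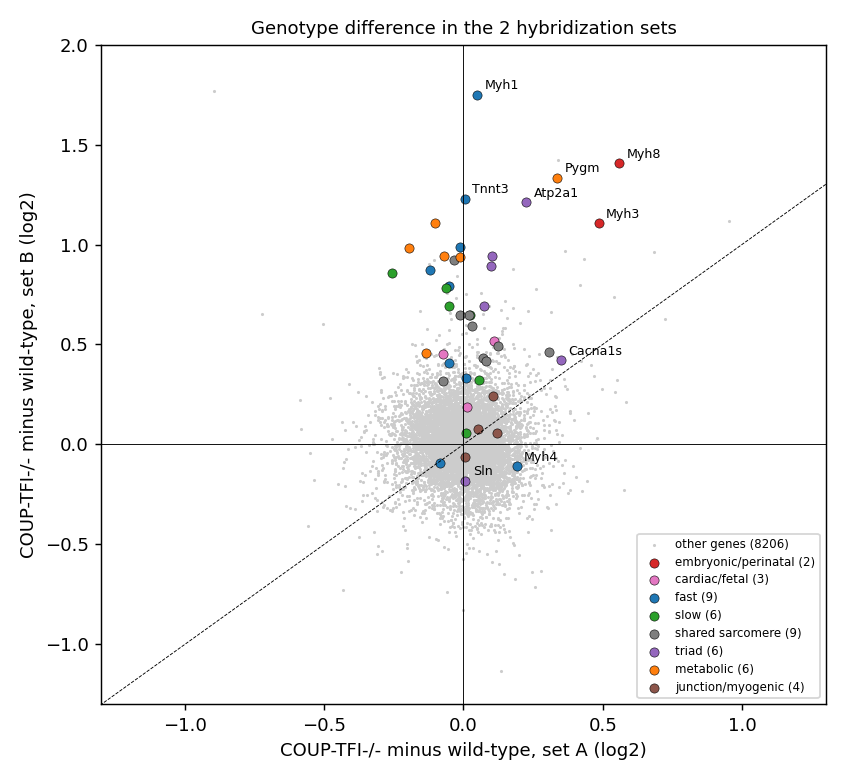
Genotype difference (COUP-TFI-/- minus wild-type, log2) in set A (horizontal) and set B (vertical) for the 45 muscle genes, coloured by class, and 8206 other genes (grey). The dashed diagonal marks equal differences. Myh8, Myh3 and Pygm lie to the right and high up, Myh1 and Tnnt3 lie near 0 in set A, and 2 genes fall outside the axes.

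On pool means, with the set as a block, Myh8 and Myh3 alone of the 45 genes passed, both higher in COUP-TFI-/-. Myh8 differed by 0.98 ± 0.14 (SE, n = 2 pools per genotype, adjusted p = 0.00916) and Myh3 by 0.80 ± 0.12 (adjusted p = 0.014). Over all genes 0.097% were higher and 0.0364% lower. Pygm (0.84, adjusted p = 0.0725), Myh1 (0.90, adjusted p = 0.426) and Atp2a1 (0.72, adjusted p = 0.203) had differences of like size and did not pass, and at an unadjusted p under 0.05, 29 genes were higher and 0 lower, against 2.63% and 1.67% of all genes. Both calls ended with dChip, where Myh8 differed by 0.95 and Myh3 by 0.82 (adjusted p = 1.00 each), and 0 genes passed with the set block left out. The fit without the wild-type pool of set B, which leaves 1 wild-type pool and has to leave out the block as well, also gave 0. With a single chip left out the count was 0 without wild-type A2, wild-type B1 or COUP-TFI-/- A1, and it was 5 without wild-type A1 and 12 without COUP-TFI-/- B1. All COUP-TFI-/- chips were above all wild-type chips for 10 of 45 genes (22.2%), against 1.51% of all genes.

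The levels of the 2 sets ran in opposite directions within the genotypes. In wild-type, 27 of 45 genes were higher in set A and 2 in set B (Myh7, -0.38, and Sln, -0.37), where 15% and 12% of all genes passed. In COUP-TFI-/-, 1 gene was higher in set A (Myh8, 0.50) and 23 were higher in set B, where 17.3% and 19% of all genes passed. Without chip COUP-TFI-/- A2 the 23 fell to 12, and without wild-type A2 or B2 the 2 genes higher in set B fell to 1. The median set A minus set B difference was 0.34 in wild-type and -0.26 in COUP-TFI-/-, and 14 genes passed as higher in set A in wild-type and higher in set B in COUP-TFI-/-, against 0.279% of all genes. Myh1 was 1.00 higher in set A in wild-type and 0.70 higher in set B in COUP-TFI-/-. Ckm was 0.45 higher in set A in wild-type and 0.73 higher in set B in COUP-TFI-/-. Myh8 passed with set A higher in both genotypes (1.35 in wild-type and 0.50 in COUP-TFI-/-). The other, dimmer probe set of Myh8 (mean 4.48) passed the other way, with set B higher in both (-0.79 in wild-type and -0.87 in COUP-TFI-/-). Myh3 (0.77 and 0.15) and Casq1 (0.76 and 0.14) passed in wild-type and did not pass in COUP-TFI-/-. Within a chip, Myh1 minus Myh8 was -2.03 in COUP-TFI-/- set A and -0.83 in COUP-TFI-/- set B, against -1.52 and -1.18 in wild-type. The probe sets differ, so only the shift between pools can be read. Myh8 had its highest pool in set A and Myh1 in set B, both in COUP-TFI-/-.

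**Figure D4:**
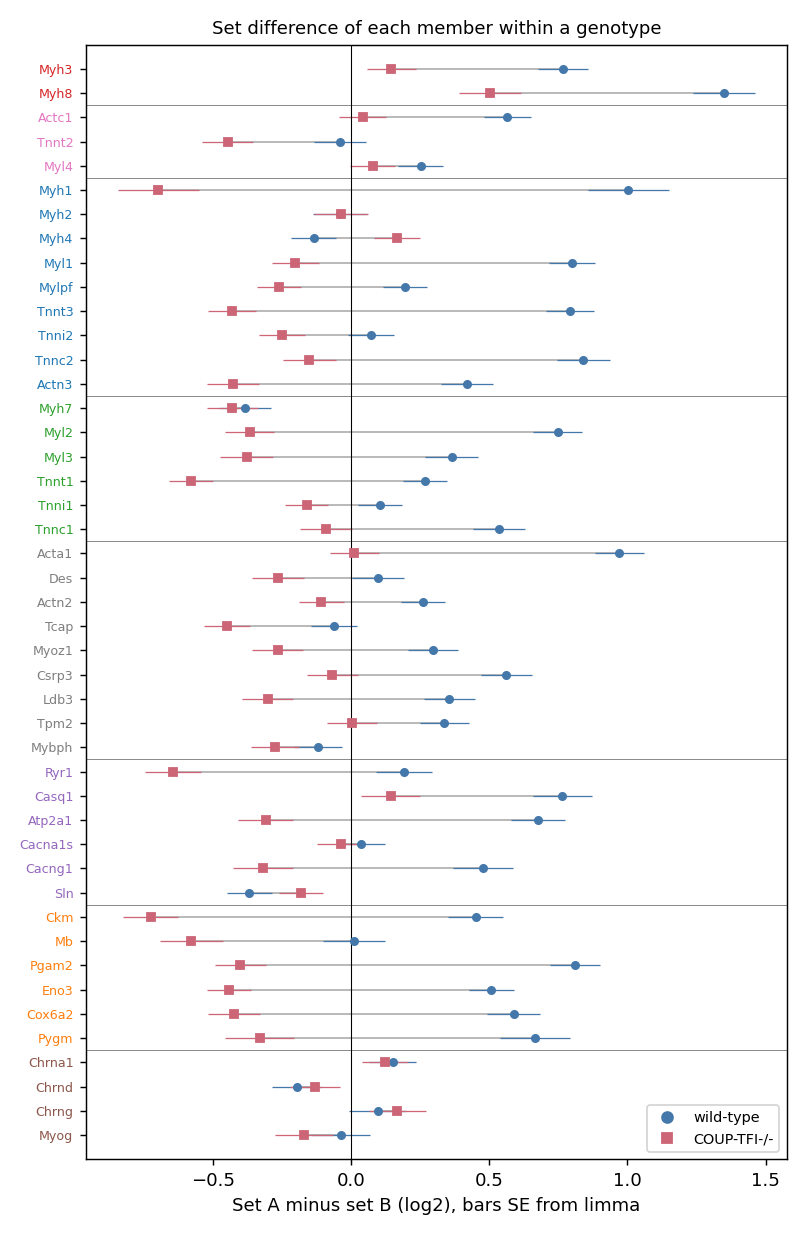
Set A minus set B difference (log2) of each muscle gene in wild-type (blue circles) and COUP-TFI-/- (red squares), with SE from limma as bars, in the order and colours of the classes. Most genes are right of 0 in wild-type and left of 0 in COUP-TFI-/-, Myh3 and Myh8 are right of 0 in both, and the junction genes lie near 0.

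Among the 36 measured muscle genes with a promoter in the RefSeq table, 17 (47.2%) held the E-box CAGCTG, the core that myogenic bHLH factors such as Myog bind, in the 250 bases before the start, against 12.8% of all 27025 promoters. The wider E-box CANNTG, which includes every CAGCTG, was in 83.3% against 66.0%, the CArG box of serum response factor in 13.9% against 1.40%, and AGGTCA, the half-site of nuclear receptors such as COUP-TFI, in 11.1% against 13.8%. All motifs were searched on both strands. CAGCTG was in 14 of the 29 promoters of genes that were higher in COUP-TFI-/- of set B (48.3%) and in 3 of the 7 others (42.9%). The promoters of Pygm, Ckm, Atp2a1 and Casq1 are given as examples from genes with a set B difference, with CAGCTG in capitals (RefSeq, GRCm38.p6, 5′ to 3′ on the gene's strand).
Pygm (chr19:6384158-6384407, plus strand): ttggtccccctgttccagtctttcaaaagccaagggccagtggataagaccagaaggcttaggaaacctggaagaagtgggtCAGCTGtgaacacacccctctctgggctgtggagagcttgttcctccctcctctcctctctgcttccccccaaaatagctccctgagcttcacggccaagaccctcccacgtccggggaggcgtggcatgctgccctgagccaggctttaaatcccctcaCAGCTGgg
Ckm (chr7:19410844-19411093, plus strand): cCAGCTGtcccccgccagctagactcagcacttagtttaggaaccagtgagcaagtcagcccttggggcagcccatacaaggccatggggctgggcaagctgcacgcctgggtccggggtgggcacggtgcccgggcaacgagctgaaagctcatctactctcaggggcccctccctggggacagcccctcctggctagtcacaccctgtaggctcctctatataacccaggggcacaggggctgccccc
Atp2a1 (chr7:126463074-126463323, minus strand): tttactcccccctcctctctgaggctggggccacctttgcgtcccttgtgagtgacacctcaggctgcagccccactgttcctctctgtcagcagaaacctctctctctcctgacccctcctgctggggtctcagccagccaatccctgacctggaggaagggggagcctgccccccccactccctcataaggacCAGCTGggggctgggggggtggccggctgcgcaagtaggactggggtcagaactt
Casq1 (chr1:172219896-172220145, minus strand): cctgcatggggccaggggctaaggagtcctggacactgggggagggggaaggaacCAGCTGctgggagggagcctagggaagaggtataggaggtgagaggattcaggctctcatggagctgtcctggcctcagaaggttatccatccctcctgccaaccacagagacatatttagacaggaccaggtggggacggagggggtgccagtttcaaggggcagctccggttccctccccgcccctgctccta

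Pygm holds CAGCTG in 2 places and the other 3 promoters in 1. Atp2a1 is the only one of these 4 that also holds AGGTCA in this window. For Casq1, the paper reported COUP-TFI binding in embryonic fibroblasts, at sites in its 5′ UTR and first intron. It also reported a changed Casq1 transcript level in COUP-TFI-/- fibroblasts, and listed a conserved predicted site in a longer promoter region. The bases before the start do not cover the sites in the 5′ UTR and first intron. The paper modelled direct repeats of varied sequence, which a search for the exact half-site can miss. A match is a match of letters in a short window and no measurement of binding.

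Other striated muscle genes, from a list of 44 of which 31 were measured, were compared in the same way. In set B 13 of 31 were higher in COUP-TFI-/- and 0 lower, against 2.42% and 1.35% of all genes, with a median of 0.24. By the interaction 8 of 31 had a larger difference in set B, against 0.618% of all genes. In set A 0 passed. At an unadjusted p under 0.05 it was 1 higher and 1 lower there, against 3.18% and 4.02% of all genes. Of the 4 brightest, Fhl1, a LIM protein of muscle, differed by 0.76 in set B (adjusted p = 0.00092), Pfkm, muscle phosphofructokinase, by 0.36, and Pvalb, parvalbumin, by 0.05 (adjusted p = 0.801). Chrne, the adult subunit of the acetylcholine receptor, had a difference of -0.00078 (adjusted p = 0.997).

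Lists for other cells were compared in the same way. In set B, 0 of 5 muscle progenitor, 0 of 7 smooth muscle, 0 of 5 red blood cell and 0 of 5 bone genes passed, with medians of 0.19, 0.14, 0.01 and 0.11. At an unadjusted p under 0.05, 3, 2, 0 and 1 of them were higher, where 10.8% of all genes were. The summed level of the smooth muscle list was 2163 and 2206 units on the wild-type chips of set B and 2321 to 2455 on the other 6 chips. With dChip it was 5949 to 6338 on the 4 chips of set B, both genotypes included, and 7738 to 8158 in set A. Muscle progenitor genes, with Dlk1 the brightest, summed to 3260 to 3582 units in set A and 4676 to 5343 in set B. Red blood cell genes summed to 20679 to 22435 units in set A and 16666 to 17443 in set B. Of the brown fat list 1 of 8 genes passed, the uncoupling protein gene Ucp1, lower in both sets (-0.91 and -1.60). The difference was above 0 for 3 of the 8 in set A and 4 in set B. With dChip 1 of the 8 passed as higher in set B, against 2.78% of all genes. Of the inner ear list 2 of 13 were lower in set B and 1 in set A. Over all genes 1.35% were lower in set B and 0.097% in set A. The part of such tissue differences in the muscle values was not tested.

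**Figure D5:**
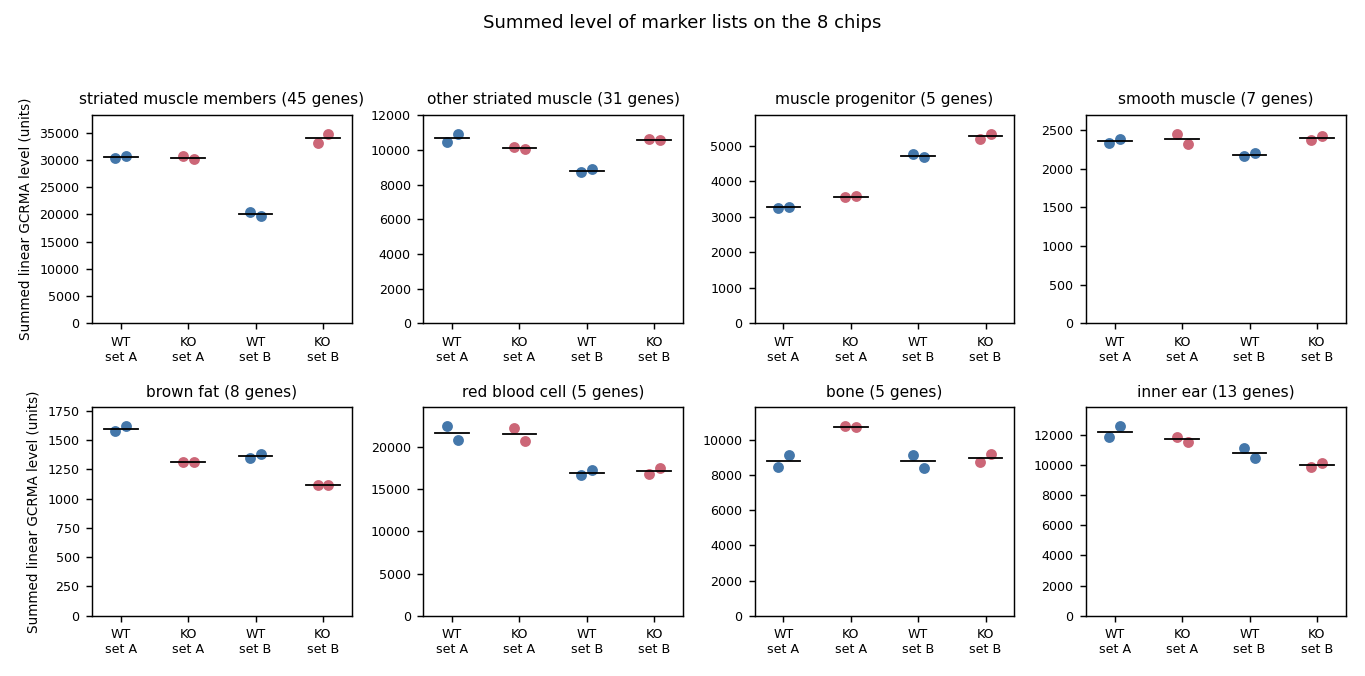
Summed linear GCRMA level (units) of 8 gene lists on each chip (points), with the mean of the duplicate chips of each pool (line), for wild-type (WT, blue) and COUP-TFI-/- (KO, red). The striated muscle lists are lowest on the wild-type chips of set B, and the progenitor and red blood cell lists differ between the sets in both genotypes. The brown fat sum is lower in COUP-TFI-/- in both sets, while its single genes go both ways (4 of 8 above 0 in set B).

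Several genes had probe sets that disagreed. Atp2a1 differed by 1.92 in set B with its second probe set, Tnnc2 by 0.15 and Tnnt1 by 0.24 (not past the threshold), and Ckm by -0.02 and Mb by -0.24, where the brighter probe sets had passed. The second probe set of Myh8, with a mean of 4.48, gave 0.02 in set B. The probe sets that represent Myh8 and Myh4 are marked as ones that may not meet all rules of probe design. Those of Actc1, Tnnc2, Myh7, Ckm, Tnnt1 and Atp2a1 carry marks for probes shared with other transcripts. The remaining 37 of the 45 genes were given by a probe set with neither kind of mark.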

How the data were processed

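RNA from pooled whole inner ears of newborn mice was hybridized to 8 MG-U74Av2 chips. The authors normalized them with GCRMA, and the deposited values are log2 per probe set, and with dChip, whose deposited values are intensity on a linear scale. Software versions are not given in the sources used here. Before taking log2, 89 dChip values below 1 were raised to 1. Of 12488 probe sets, 66 controls were left out. Calculations used R 4.3.3, limma 3.58.1 and statmod 1.5.0. Genotype was tested on pool means with the set as a block (1 residual degree of freedom, 14.3 from limma's prior). The differences within sets, between sets and their interaction were tested on single chips (4 residual, 8 prior), so the error there is that between duplicates. Pools are paired by set, as the methods describe, and the set differences of the genotypes correlated at r = 0.752 over 12422 probe sets. Symbols came from the platform annotation, in which 10833 probe sets name 1 gene, 396 several and 1193 none. All 45 matched RefSeq by identifier. The fits were tested on simulated data. The members, their classes and the other lists were chosen with earlier results of these data known. Values per chip are given for Myh8, Myh3, Myh1, Pygm, Casq1 and, in each class, the 2 genes with the lowest interaction p. Of other lists, at most 4 of the brightest genes are named. Ucp1 is among these. Arrays give no counts, so precision depends on how many pools and chips there are. Alternatives were another normalization (dChip, quantile), filters, variance priors, probe sets and leaving out each chip.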

Additional observations from a re-analysis of the deposited data

Results flagged for a closer look

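The genotype difference was larger in set B than in set A, by the interaction test at an adjusted p under 0.05, for 21 genes. As set A minus set B, the values were -0.62 for Myh3 and -0.85 for Myh8 among the embryonic and perinatal chains. Among fast isoforms they were -1.70 for Myh1, -1.22 for Tnnt3, -1.002 for Myl1, -0.99 for Tnnc2 and -0.84 for Actn3. Among slow isoforms they were -1.11 for Myl2, -0.85 for Tnnt1 and -0.74 for Myl3. Shared sarcomere genes had -0.96 (Acta1), -0.66 (Ldb3) and -0.63 (Csrp3). In the triad they were -0.99 for Atp2a1, -0.84 for Ryr1 and -0.80 for Cacng1. Metabolic genes had -1.21 (Pgam2), -1.18 (Ckm), -1.01 (Cox6a2), -0.996 (Pygm) and -0.95 (Eno3). These tests compare 1 pool per genotype and set against the spread of duplicate chips.

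A single chip stood far from the other 3 of its genotype for Tnnc1, where COUP-TFI-/- B2 was the highest and its gap to the nearest chip was 0.968 of the whole range. Gaps past the limit used to pick such chips come up by chance in about 1 group in 20.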

How the results depend on the processing

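Of the single-gene results under the alternatives, 616 kept their direction and side of the threshold, 157 no longer passed and 7 turned. With dChip, Cacng1 had an interaction of 0.063 (also with values under 16 set to 16) and a set B difference of -0.078. With the dimmest probe set of a gene, the pool difference of Myh8 was -0.012, and the set B differences of Tpm2, Ckm and Mb were -0.18, -0.023 and -0.24. The cause was not tested. On pool means, 2 genes were higher in COUP-TFI-/-. The count was 0 with dChip, with its floor of 16 and with quantile normalization, 4 with single chips as replicates, 1 with the dimmest probe sets and 0 to 12 with a chip left out. Without the set as a replicate block, where the pools are no longer paired, it was 0. Over the alternatives the adjusted p ran from 2.7e-07 to 1 for Myh3 and from 3.4e-09 to 1 for Myh8. The 21 interactions became 6 with the dChip floor of 16 and 12 to 22 with a chip left out. They became 0 with the methods' 2-way analysis of variance after Benjamini-Hochberg adjustment. The paper took an interaction p under 0.01 and describes no such adjustment. In set A the 0 genes higher became 2 with an intensity trend in limma and 0 to 1 with a chip left out, and in set B the 0 genes lower became 1 with dChip. The 35 genes higher in set B ranged from 25 to 36, over 41 genes in one of these settings. For the set difference, the 2 wild-type genes higher in set B became 4 with dChip and 1 to 2 with a chip left out. The 1 COUP-TFI-/- gene higher in set A became 2 with dChip, 0 with the dimmest probe sets and 0 to 1 with a chip left out, and the 23 higher in set B ranged from 12 to 24 with a chip left out.

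Settings added after the data were seen left out the wild-type pool of set B together with the set block, which gave 0 genes on pool means as leaving out the block alone did, or used probe sets with no mark for shared or imperfect probes. The latter measured 41 genes and gave 1 on pool means, 1 wild-type gene higher in set B and 0 COUP-TFI-/- genes higher in set A. With 2 pools per genotype the precision is limited, and dim genes such as Myh2 lie near background.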
